A study of Mus musculus with 8 samples.

Results

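Late neuroblasts and immature granule neurons are a late stage of the neuronal lineage of the mouse dentate gyrus. Here they were captured when its cells were sorted for neural stem cells and their progeny, and later neurons were not looked for. They were chosen here by their own transcripts: a barcode with over 500 genes and under 10% mitochondrial UMIs (unique molecular identifiers, each standing for 1 captured transcript) had to show at least 3 of the 5 proneuronal genes Neurod1, Igfbpl1, Sox11, Dcx and Cd24a, no UMI of Eomes or Neurog2, and at least 2 of the 4 late markers Calb2, Tac2, Stmn2 and Bhlhe22. It could show at most 2 of 10 cell cycle genes (Mcm2 to Mcm7, Pcna, Top2a, Cdk1 and Ccnb1) and at most 1 of 7 genes of other lineages (Mog, Mag, Mobp, Cx3cr1, Cldn5, Pdgfra and Cspg4). The rule found 1094 late neuroblasts among 26036 barcodes, of which 24376 passed the filters on genes and mitochondrial UMIs. These genes are measured values, so their levels in the chosen cells describe the choice and are not findings.

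The mice carried Ki67-creERT2, Nestin-GFP and a Cre-dependent tdTomato reporter, and are called Ki67TD-NES. Tamoxifen was given for 6 days and the mice were culled on day 8, so tdTomato marks cells that were cycling during treatment and their descendants, and GFP marks cells in which the Nestin transgene is or was recently active. There were 8 libraries from 7 experiments: 1 experiment at 1 month of age, 3 at 2 months and 3 at 6–8 months (labelled 6 months in the sample records). All mice received tamoxifen and carried all 3 alleles, mice of both sexes were pooled in an experiment, and no library came from untreated or unsorted tissue. The sort sets which neuroblasts are seen: cells that had lost GFP were collected only as far as the labels of 1 library at 2 months say. The 3 experiments at 2 months used Version 2 of the 10x 3′ chemistry and the others Version 3, so that 2 months and Version 2 cannot be told apart.

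Granule neurons of the dentate gyrus are produced throughout life. Radial stem cells give rise to intermediate progenitors that express Eomes (Tbr2), these give rise to neuroblasts that express doublecortin (Dcx), and the newborn neuron then passes through a short phase marked by calretinin (Calb2) before it replaces calretinin with calbindin (Calb1) and joins the granule cell layer. On this way chromatin proteins and cyclins of the progenitor are shed, and the cell grows an axon and dendrites, responds to GABA before glutamate, and is selected to survive or die.

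The rule narrowed the 24376 barcodes to 3767 with proneuronal genes, 1710 without Eomes or Neurog2, 1248 with late markers, 1174 after the limit on cell cycle genes and 1094 after the limit on other lineages. There were 256 late neuroblasts at 1 month, 169, 279 and 149 in the 3 experiments at 2 months, and 84, 55 and 102 in those at 6–8 months. Their median depth was 7011 UMIs per cell at 1 month, 3834, 2208 and 2550 at 2 months, and 5989, 6874 and 7630.5 at 6–8 months. No late neuroblast shared its barcode sequence with a late neuroblast of another library, and 59 barcode sequences occurred in more than 1 library among all cells. No doublet caller was run, and the limit on genes of other lineages was the only guard against doublets.

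The number of late markers moved with depth, which also differs by chemistry. Of the late neuroblasts, 427 (39.0%) showed exactly 2 late markers at a median of 2831 UMIs, 533 (48.7%) showed 3 at 5092 UMIs and 134 (12.2%) showed all 4 at 6768 UMIs. Version 2 gave 332, 231 and 34 of these cells. Within Version 2 the medians were 2442.5, 2980 and 3393.5 UMIs, and within Version 3 they were 6090, 6838.5 and 7514.5. Just outside, 226 cells that met every other part of the rule had 1 late marker at a median of 2373 UMIs and 101 had none at 2586 UMIs, of which 205 and 85 were from Version 2. Those 327 cells are called early neuroblasts below. The other limits left out 40 cells with 3 cell cycle genes, 61 cells with 2 genes of other lineages and 12 cells with 2 proneuronal genes. A further group, 1107 intermediate progenitors, met the proneuronal, cell cycle and lineage parts of the rule but had a UMI of Eomes or Neurog2. That split also depends on depth. Of these progenitors, 93.0% had a UMI of Eomes at full depth and 42.4% in cells thinned to 1500 UMIs. For Neurog2 the shares were 22.5% and 9.58%. How many late or early neuroblasts are progenitors in which Eomes and Neurog2 went undetected was not tested.

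Calb2 encodes the calcium buffer calretinin (chromosome 8, 110137502 to 110168210, minus strand, GRCm38), Stmn2 a microtubule regulator of growing neurites (chromosome 3, 8509360 to 8561606, plus strand), Bhlhe22 a repressor of the bHLH family (chromosome 3, 18054174 to 18057517, plus strand) and Tac2 the precursor of the peptide neurokinin B (chromosome 10, 127724478 to 127731768, plus strand). A UMI of Stmn2 was found in 93.9% of late neuroblasts, of Calb2 in 88.3%, of Bhlhe22 in 69.7% and of Tac2 in 21.3%. In 7180 oligodendrocytes, which should lack these genes, the shares were 2.05%, 2.31%, 3.19% and 0.376%, at a median of 4632.5 UMIs per cell against 4043 in late neuroblasts. Intermediate progenitors held the same markers often, Stmn2 in 71.1%, Calb2 in 50.5%, Bhlhe22 in 49.5% and Tac2 in 29.1%, at a median of 6160 UMIs per cell. In cells thinned to 1500 UMIs the shares of late neuroblasts and progenitors were 74.0% and 48.1% for Stmn2, 74.2% and 34.2% for Calb2, 39.8% and 22.4% for Bhlhe22 and 12.02% and 15.4% for Tac2, so over all cells the share with Tac2 lay below that of progenitors, a difference that was not tested. The most frequent combinations were Calb2, Stmn2 and Bhlhe22 in 466 cells, Calb2 with Stmn2 in 257 cells, and all 4 markers in 134 cells.

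**Figure D1:**
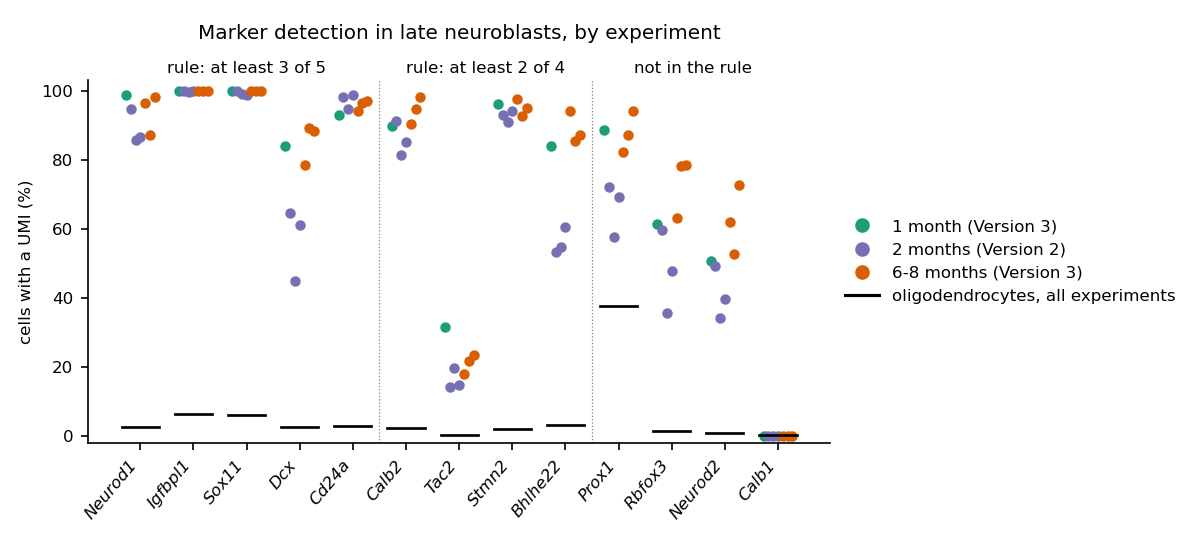
Percent of late neuroblasts with at least 1 UMI of each gene (vertical axis), 1 point per experiment coloured by age and chemistry; black bars give the same share over all 7180 oligodendrocytes. The rule's own genes stand left of the second dotted line, and to its right Prox1, Rbfox3 and Neurod2 were detected in every experiment while Calb1 was detected in none of them.

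Genes outside the rule were examined next. Prox1, the homeobox factor that specifies granule neurons (chromosome 1, 190118035 to 190170714, minus strand), was detected in 75.5% of late neuroblasts and averaged 491 CPM (UMIs of the gene among 1000000 UMIs of the cells' sum), but oligodendrocytes express it too (37.6%). Rbfox3, which encodes the pan-neuronal antigen NeuN, was detected in 55.2% and Neurod2, a bHLH factor of differentiating excitatory neurons, in 47.7%, against 1.36% and 0.780% of oligodendrocytes. Progenitors shared these genes, with Prox1 in 70.6%, Rbfox3 in 62.6% and Neurod2 in 31.4%, and in thinned cells the shares of late neuroblasts and progenitors were 46.9% and 32.9% for Prox1, 26.2% and 23.996% for Rbfox3 and 23.5% and 11.9% for Neurod2. Many progenitors thus held Prox1 and Rbfox3 as well. Calb1 had no UMI in any of the 1094 cells, which allows a share of cells with a UMI of up to 0.274%. Other genes of mature granule and excitatory neurons were close to 0: the 1094 cells together held 6 UMIs of C1ql2, 20 of C1ql3, 4 of Plk5, 3 of Tdo2, 3 of Dsp, 2 of Ntng1, 2 of Camk2a, 11 of Grin2a and 47 of Slc17a7 (VGLUT1). Slc12a5, which encodes the chloride exporter KCC2 of mature neurons, had 2 UMIs, and Slc12a2, the importer NKCC1 of immature neurons, averaged 19.6 CPM (SD 7.93, n = 7 experiments). A UMI of Slc12a2 was found in 8.87% of late neuroblasts and 67.4% of oligodendrocytes, which express it too. Markers that the stages share were common: at least 2 of 8 markers of mature neurons occurred in 592 cells (54.1%), with Ppp3ca as the most abundant, and at least 2 of 9 markers of dentate granule neurons in 260 cells (23.8%), with Prox1 as the most abundant and Calb1 at 0.

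Markers of other cell types were few for interneurons and Cajal-Retzius cells and common for radial stem cells or astrocytes and for oligodendrocytes. At least 2 of 9 markers of interneurons or olfactory-type neuroblasts occurred in 2 cells, both from the second experiment at 6–8 months, where the summed level of that list was 111 CPM against 0 to 10.7 in the other experiments. Its most abundant gene was Dlx1 and Lhx6 was at 0. At least 2 of 7 Cajal-Retzius markers occurred in 1 cell, and in that list only Nhlh2, which granule neuroblasts also express here, had a level above a few CPM. At least 2 of 9 markers of radial stem cells or astrocytes occurred in 535 cells (48.9%). The summed level of those 9 genes was 765 CPM at 1 month, 622, 975 and 665 at 2 months and 584, 654 and 725 at 6–8 months in late neuroblasts, and their most abundant gene was Apoe, at a mean of 266 CPM. At least 2 of 6 oligodendrocyte markers occurred in 268 cells (24.5%), 190 of them in the second experiment at 2 months. The summed level of those 6 genes was 30.2 CPM at 1 month, 152, 1469 and 529 at 2 months, and 120, 89.6 and 105 at 6–8 months. In the same experiments it was 74.1, 133, 1377, 418, 109, 87.3 and 82.7 in intermediate progenitors. The comparison with early neuroblasts, that by Tac2 and the difference between 2 months and the other ages are also given without the second experiment at 2 months.

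Late neuroblasts and early neuroblasts were compared in the 5 experiments with at least 10 cells of each, to ask what else differs once late markers have been gained. Hmgn2 and Hmgb2, which encode chromatin proteins of the high mobility group, and Ccnd2, the cyclin that drives divisions of neuronal progenitors, were lower in late neuroblasts, and Neurod2, Prox1, the splicing factor Rbfox1 and the potassium channel gene Kcnk1 were higher. Of 3037 genes tested with edgeR's quasi-likelihood test on counts summed per experiment, with the experiment as a block and outside the 28 genes of the rule, 62 passed an adjusted p of 0.05 (2.04%), 30 higher (0.988%) and 32 lower (1.05%). The early group was small and mixed. It held 12 cells at 1 month and 11 in the first experiment at 6–8 months, and its summed interneuron markers were 19.6 CPM at 1 month, 932, 561 and 342 at 2 months and 211 in that 6–8 month experiment, against 1.99 to 10.7 in late neuroblasts of the same 5. The summed markers of radial stem cells or astrocytes were also higher in early neuroblasts, at 2329 CPM at 1 month, 1636, 1530 and 1170 at 2 months and 1107 at 6–8 months, against 765, 622, 975, 665 and 584 in late neuroblasts. Among the genes called lower in late neuroblasts, Apoe belongs to that list, and Sox2, Dbi and Mt1 are also known from radial stem cells and astrocytes. The summed oligodendrocyte precursor markers at 1 month were 1370 CPM in early and 52.9 in late neuroblasts. The part of the radial and precursor markers in the result was not tested. Without cells with interneuron or Cajal-Retzius markers 36 genes passed, 13 higher and 23 lower. Without the second experiment at 2 months 22 passed, 4 higher and 18 lower, without the third there 26 passed, 9 higher and 17 lower, and without every cell with an oligodendrocyte UMI 9 passed, 1 higher and 8 lower.

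Hmgn2 stood at 613 CPM at 1 month, 664, 873 and 709 at 2 months and 502 in the first experiment at 6–8 months in late neuroblasts, against 2094, 1670, 2258, 1811 and 1476 in early neuroblasts. The 2 groups did not overlap, and the log2 fold change was -1.49 ± 0.10 (SE, edgeR adjusted p = 8.0e-09, lower in 5 of 5). Ccnd2 was 1.99 ± 0.20 log2 units lower by the same fit, although at 1 month the levels were close, 86.9 in late and 97.9 in early neuroblasts. Hmgb2 gave -2.36 ± 0.30, Dbi -1.52, the long noncoding RNA Pantr1 -1.23, the stem cell factor Sox2 -1.11, S100a16 -1.10, the metallothionein Mt1 -1.09 and the histone genes H2afx -1.06 and H2afz -1.05. Higher in all 5 experiments were Rbfox1 (1.47 ± 0.26), Sh3bp5 (1.20), Ppp1r14c (0.98), Nhlh2 (0.97), Neurod2 (0.94), Camk2b (0.90), the AMPA receptor auxiliary subunit Cnih2 (0.88), Kcnk1 (0.87), the cannabinoid receptor Cnr1 (0.86) and Dusp14 (0.84). Among gene lists, 3 of 6 tested high mobility group genes were lower (Hmgn2, Hmgb2 and Hmgn1, list median -0.50), 4 of 22 microtubule and growth cone genes were higher (Stmn4, Tubb2b, Basp1 and Tubb2a, median 0.26) and 3 of 17 neuronal transcription factors were higher (Neurod2, Prox1 and Myt1l, median 0.11), while the median over all genes tested was 0.00. Of all genes tested here, 0.988% were called higher and 1.05% lower. Rab3a of the synaptic vesicle list (0.73), the adhesion gene Chl1 (0.83) and the calcineurin gene Ppp3ca (0.64) were also higher, and the progenitor factor Insm1 (-0.82) and the glial apolipoprotein gene Apoe (-1.33) were lower.

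Because early neuroblasts were scarce in the Version 3 experiments, late neuroblasts were also compared with intermediate progenitors, of which every experiment held at least 50. This comparison was chosen after the numbers of early neuroblasts had been seen, and it shares its late samples with the one above, so the 2 are not independent. The rule separates the groups by Eomes and Neurog2 and asks for late markers on 1 side only, and genes that travel with these are part of the same choice. Of 4498 genes tested, 1275 (28.3%) passed, 652 higher (14.5%) and 623 lower (13.9%), and 760 of them changed the same way in all 7 experiments. Scaled by total UMIs, 565 were higher and 767 lower (42.4% higher in place of 51.1%), so the balance of directions depends on the scaling. Transcripts of high mobility group proteins, Notch pathway genes and progenitor markers were among those lower in late neuroblasts, and transcripts of several neuronal transcription factors, adhesion molecules, cytoskeletal proteins and transmitter receptors were among those higher. Median depth was 4043 UMIs per cell in late neuroblasts and 6160 in progenitors. With every cell thinned to 1500 UMIs and the groups chosen again from the thinned counts, 296 of 1150 genes tested passed. The groups then held partly other cells. At 1 month, late neuroblasts went from 256 to 349 cells and intermediate progenitors from 333 to 169.

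**Figure D2:**
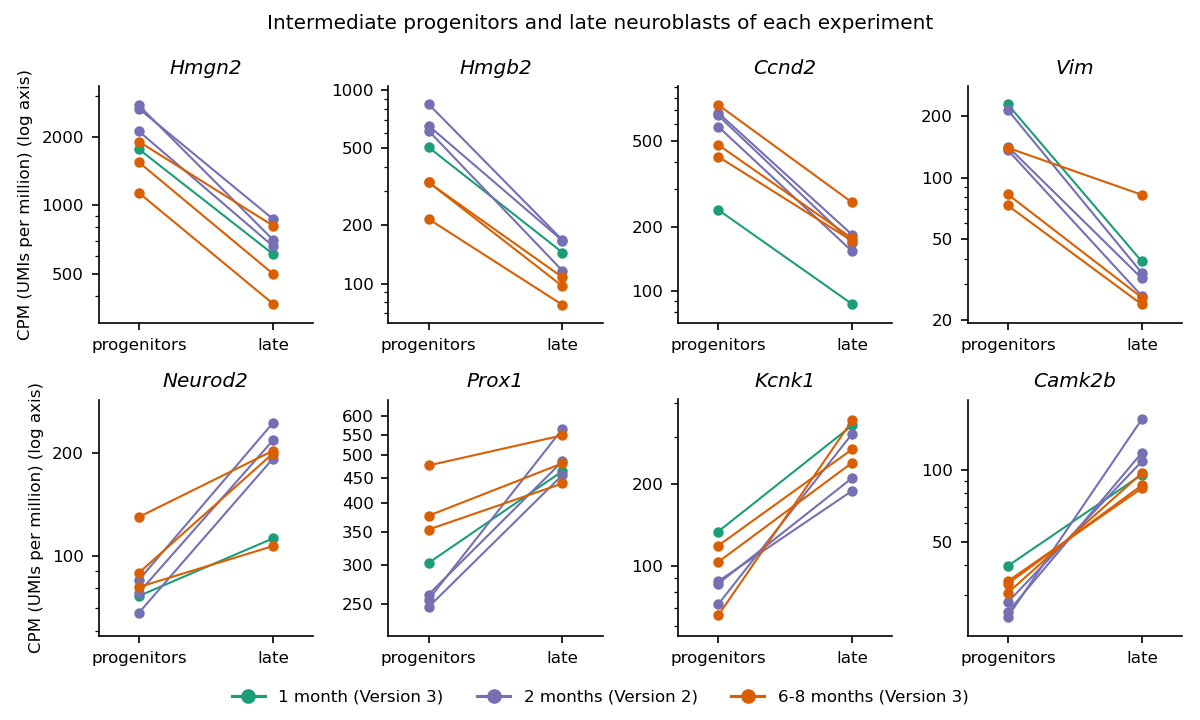
Levels in CPM (logarithmic axes) of 8 genes in intermediate progenitors (left) and late neuroblasts (right), with a line for each of the 7 experiments coloured by age and chemistry. All lines fall for Hmgn2, Hmgb2, Ccnd2 and Vim and all rise for Neurod2, Prox1, Kcnk1 and Camk2b.

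High mobility group proteins bind nucleosomes or bent DNA and are abundant in proliferating progenitors. In late neuroblasts Hmgn2 (chromosome 4, 133964738 to 133968650, minus strand) was at 613 CPM at 1 month, 664, 873 and 709 at 2 months and 502, 816 and 372 at 6–8 months. In intermediate progenitors it was at 1761, then 2109, 2650 and 2738, then 1544, 1900 and 1135, so that every progenitor sum lay above every late sum. The log2 fold change was -1.56 ± 0.05 (SE, edgeR adjusted p = 3.7e-42). Hmgb2 ranged from 77.6 to 168 in late neuroblasts and from 216 to 846 in progenitors, with no overlap (-1.90 ± 0.07). All 7 tested genes of the 9 in the list were lower, beside 13.9% of all genes tested. The list median was -0.42, and the smaller changes were those of Hmgb1 (-0.36), Hmgn1 (-0.40) and their relatives. Hmgn5, a member of the nucleosome-binding branch, gave -1.20 ± 0.13.

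Ccnd2 stood at 86.9 CPM at 1 month, 183, 168 and 153 at 2 months and 171, 259 and 176 at 6–8 months in late neuroblasts. In progenitors it stood at 239, then 680, 661 and 586, then 424, 740 and 482. It was lower in late neuroblasts of all 7 experiments, but the groups overlapped, since progenitors at 1 month (239) lay below late neuroblasts of the second experiment at 6–8 months (259). The log2 fold change was -1.60 ± 0.07. Of the 7 tested genes of the cell cycle exit list, Btg1, an antiproliferative gene, was higher (0.45), Cdkn2c, an inhibitor of cyclin D kinases, was lower (-0.48), and Btg2, Gadd45g, Cdkn1b and Cdkn2d did not pass. The list median was -0.04, and its members moved both ways.

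Notch signalling holds progenitors undifferentiated. Mfng, which modifies Notch receptors (-1.62 ± 0.11), and Dll3, a ligand that antagonises them (-0.89 ± 0.12), were lower in late neuroblasts, with Mfng at 25.9 to 45.8 CPM against 94.7 to 148 in progenitors. Hes6 missed the threshold (-0.17, adjusted p = 0.051), and the other 10 of the 13 genes of that list were too rarely detected to be tested. Among progenitor markers Mfap4 (-0.99) and Insm1 (-0.66) were lower, and Gadd45g and Btg2 did not pass. The 10 genes that fell most with the same sign in every experiment were Trp53i11 (-2.14), the intermediate filament gene Vim (-2.11), the HMG-box factor Tox3 (-2.09), the bHLH factor Neurod4 (-1.94), Hmgb2, the metallothionein Mt2 (-1.76), the radial glial lipid carrier Fabp7 (-1.69), Mfng, Ccnd2 and Hmgn2. Vim ranged from 23.9 to 82.3 in late neuroblasts and from 73.0 to 228 in progenitors. Only the late sum of the second experiment at 6–8 months, 82.3, reached into the progenitor range. The radial glial glutamate transporter Slc1a3 was lower (-0.87), and Apoe and Slc1a2 did not pass.

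Neuronal transcription factors moved both ways: of 17 tested, 9 were higher and 5 lower, with a list median of 0.18. Among all genes tested the shares were 14.5% higher and 13.9% lower. Neurod2 (chromosome 11, 98325415 to 98329648, minus strand) was at 112 CPM at 1 month, 245, 193 and 218 at 2 months and 199, 107 and 203 at 6–8 months in late neuroblasts. In progenitors it was at 76.0, then 84.7, 67.8 and 77.8, then 88.9, 80.8 and 130. It was higher in late neuroblasts of all 7 experiments (0.99 ± 0.09, edgeR adjusted p = 3.3e-14), with overlap through the last progenitor value. Prox1 ranged from 438 to 565 in late neuroblasts and from 247 to 477 in progenitors (0.62 ± 0.07). Nhlh2, a bHLH factor of newborn neurons, was 1.00 ± 0.10 higher, and Myt1l, which represses non-neuronal genes, was 0.57 higher. Rfx3 (0.56), Camta1 (0.41), Zeb2 (0.29), Zbtb20 (0.26), Nfia (0.18) and Nfib (0.11) were also higher. Tbr1 (-0.43), Fezf2 (-0.41), Sox4 (-0.22), Bcl11a (-0.19) and Nfix (-0.13, which turned to 0.0092 with thinning) were lower, and Neurod6, Zfp292 and Tcf4 did not pass.

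The promoters of Neurod2, Prox1 and Nhlh2 are shown because these 3 factors rose together and each promoter holds the E-box CAGATG, a sequence that neuronal bHLH factors such as the NeuroD family bind. The genes were chosen after their values had been seen. Each run spans 250 bases before to 50 bases after a RefSeq start site (GRCm38.p6) and is written 5′ to 3′ on the gene's strand, with CAGATG, or CATCTG on the other strand, in capitals. They lie at chr11:98329596-98329895 (minus strand), chr1:190170778-190171077 (minus strand) and chr3:102009895-102010194 (plus strand), and the E-box begins 118, 179 and 127 bases before the start site.
Neurod2: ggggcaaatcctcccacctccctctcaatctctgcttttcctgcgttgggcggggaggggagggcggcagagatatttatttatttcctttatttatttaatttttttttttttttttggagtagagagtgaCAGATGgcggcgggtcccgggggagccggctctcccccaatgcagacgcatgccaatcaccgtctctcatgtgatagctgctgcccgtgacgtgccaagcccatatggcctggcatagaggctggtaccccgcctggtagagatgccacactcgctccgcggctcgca
Prox1: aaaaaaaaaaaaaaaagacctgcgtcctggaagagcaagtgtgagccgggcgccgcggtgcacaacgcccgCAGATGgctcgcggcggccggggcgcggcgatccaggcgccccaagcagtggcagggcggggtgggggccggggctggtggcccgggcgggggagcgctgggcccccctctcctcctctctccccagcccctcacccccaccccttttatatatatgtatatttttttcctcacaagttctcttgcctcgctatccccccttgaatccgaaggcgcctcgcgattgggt
Nhlh2: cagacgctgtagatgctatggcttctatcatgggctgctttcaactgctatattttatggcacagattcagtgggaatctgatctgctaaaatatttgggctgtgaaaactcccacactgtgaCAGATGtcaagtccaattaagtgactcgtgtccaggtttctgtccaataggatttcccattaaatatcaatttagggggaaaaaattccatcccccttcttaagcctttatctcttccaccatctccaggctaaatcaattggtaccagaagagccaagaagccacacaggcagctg
Among all RefSeq promoters of this length, 17.2% hold CAGATG or CATCTG, among those of tested genes 10.3% (473 of 4593), and the genes called in the comparison with progenitors gave 82 of 684 promoters for those higher in late neuroblasts and 67 of 652 for those lower. The shares of the called genes lie near that of the tested genes, and a match of letters is not a binding site.

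Of the 23 tested genes for microtubules and the growth cone, 12 were higher, 3 lower and 8 did not pass, with a list median of 0.15. Of all genes tested against progenitors, 14.5% were called higher and 13.9% lower. Ina, which encodes the neurofilament-like protein internexin, was at 131 CPM at 1 month, 86.8, 71.8 and 76.6 at 2 months and 134, 172 and 160 at 6–8 months in late neuroblasts. In progenitors it was at 66.4, then 56.1, 18.0 and 29.2, then 67.3, 61.1 and 64.5, so that the groups did not overlap. The difference was 1.13 ± 0.10. Stmn4 (0.82), the tau gene Mapt (0.65), the growth cone protein gene Basp1 (0.44) and Tubb2a (0.36) were higher, whereas Tubb3 and Gap43, both common labels of young neurons, did not pass (-0.10 and 0.17). Tuba1a was lower (-0.12), but its sign turned with thinning and against progenitors with under 2 late markers. Basp1 also differed by experiment: it was at 2329 at 1 month and at 2614 to 2785 at 6–8 months but at 788 to 910 at 2 months in late neuroblasts, and progenitors showed the same step, from 554 to 645 at 2 months to 1794 to 2121 at the other ages. Age and chemistry cannot be told apart there.

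Genes for guidance and adhesion were mostly higher than in progenitors among the few that could be tested, beside 14.5% higher and 13.9% lower of all genes. Against early neuroblasts 0 of 6 tested guidance genes and 1 of 7 adhesion and reelin pathway genes (Chl1) passed. Of 7 guidance genes tested of 20, 5 were higher and 1 lower, with a median of 0.42: the semaphorin receptors Plxna4 (0.87) and Plxna2 (0.52) and the ligands Sema3c (0.56) and Sema6d (0.42) were higher, as was Nrp1 (0.27), and the ephrin receptor Epha5 was lower (-0.58). Of 8 adhesion and reelin pathway genes tested of 19, 5 were higher and 1 lower, with a median of 0.40. Chl1, an adhesion molecule of migrating neurons, was at 109 to 186 CPM in late neuroblasts and 43.8 to 108 in progenitors (1.12 ± 0.09), and Cntnap2 (0.66), Ncam1 (0.47) and L1cam (0.36) were also higher. Tenm4 was lower (-0.31), which turned to 0.19 against progenitors with under 2 late markers, and the reelin receptor gene Lrp8 and Cadm3 did not pass.

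Transmitter receptors could be tested for 4 genes only, and all 4 were higher than in intermediate progenitors, where 14.5% of all genes tested were called higher. Gabra2, a GABA-A receptor subunit, was at 75.0 CPM at 1 month, 121, 131 and 136 at 2 months and 120, 92.0 and 106 at 6–8 months in late neuroblasts. In progenitors it was at 47.0, then 54.0, 47.9 and 55.9, then 76.4, 41.5 and 41.7. It was higher in late neuroblasts of all 7 experiments (1.03 ± 0.10), and Gabbr1 was 0.26 higher. Of glutamate receptor genes, Gria2, the AMPA receptor subunit that blocks calcium entry, ranged from 630 to 831 in late neuroblasts and from 341 to 676 in progenitors (0.58 ± 0.06), and Grin2b, the NMDA receptor subunit of young synapses, was 0.77 ± 0.08 higher. Against early neuroblasts these 4 genes did not pass, at 0.80 for Gabra2, 0.49 for Grin2b, 0.10 for Gabbr1 and -0.12 for Gria2. The other 11 genes for GABA and 14 for glutamate were too rarely detected to be tested against progenitors. Of 19 voltage-gated channel genes only Cacna2d1 and Cacna1a were tested there, neither of which passed.

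The synaptic vesicle list did not move 1 way, and among all genes tested 14.5% were called higher and 13.9% lower. Of 10 tested genes 3 were higher, Cplx1 (0.69), Syp (0.45) and Rab3a (0.44), and 3 were lower, Syn2 (-0.78), the vesicular glutamate transporter Slc17a6 (-0.66) and Cplx2 (-0.25), with a median of 0.12. Of markers of mature neurons, Ppp3ca was higher (0.45), and Snap25 and Rbfox3 did not pass (Rbfox3 0.05 ± 0.08). Of 12 genes for steroid and neurotrophin signalling 3 were tested, of which the fibroblast growth factor receptor gene Fgfr1 was higher (0.76) and Ntrk2 and Igf1r did not pass.

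**Figure D3:**
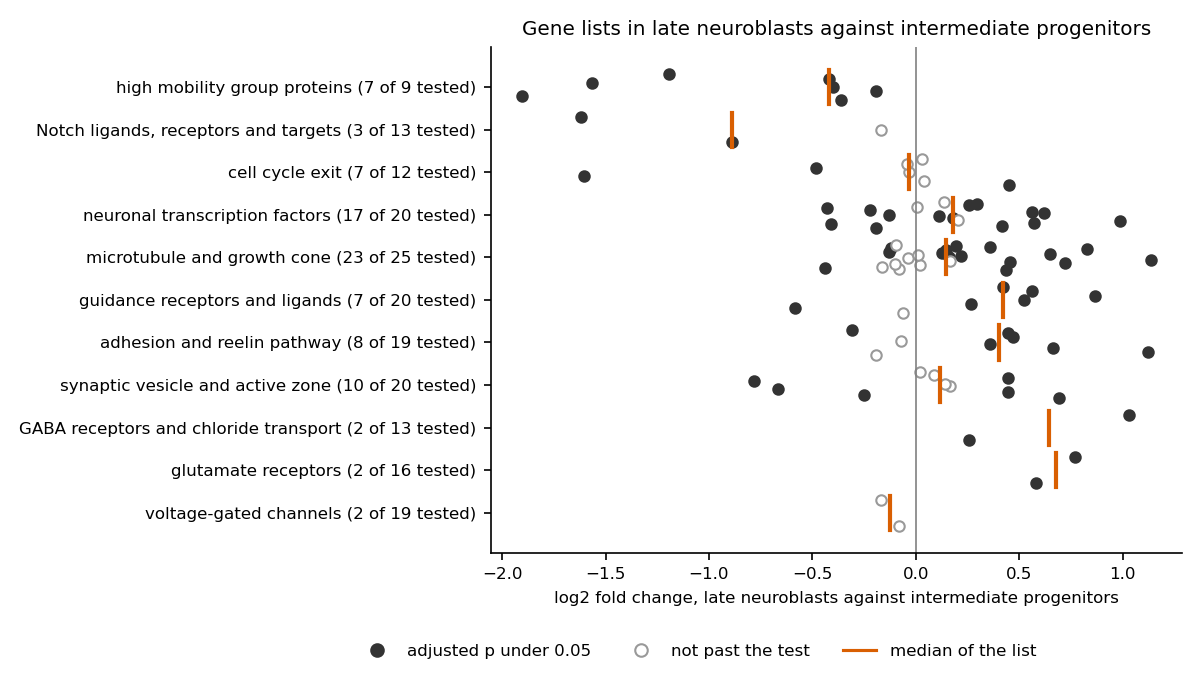
Log2 fold change of late neuroblasts against intermediate progenitors (horizontal axis) for every tested gene of 11 lists, 1 point per gene, filled where the edgeR adjusted p is under 0.05, with orange bars for list medians. All 7 high mobility group genes lie left of 0, and most guidance and adhesion genes lie right of it.

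The 10 genes that rose most with the same sign in every experiment are described next. Camk2b, the beta subunit of a calcium- and calmodulin-dependent kinase, was at 95.5 CPM at 1 month, 118, 109 and 163 at 2 months and 83.7, 96.9 and 86.2 at 6–8 months in late neuroblasts, against 24.3 to 39.6 in progenitors. Its groups did not overlap, nor did those of the guidance gene Sema5a, at 71.3 to 119 against 18.0 to 44.5, and both had a log2 fold change of 1.62 ± 0.12. Kcnk1, a potassium leak channel gene (chromosome 8, 125995170 to 126030685, plus strand), was at 189 to 344 against 65.5 to 134 (1.47 ± 0.08), again without overlap. The others were the secreted metalloprotease gene Adamts18 (1.49), Rbfox1 (1.47), Elmo1 (1.37), which helps to activate Rac, Prr7 (1.26), the translational repressor gene Nanos1 (1.24), the synuclein gene Sncb (1.23) and Rerg (1.19). In the comparison with early neuroblasts the differences of Camk2b, Kcnk1 and Rbfox1 were 0.90, 0.87 and 1.47.

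Tac2 was detected in a minority of the late neuroblasts. A UMI of Tac2 was found in 233 of them, 199 with Calb2 and 34 without, and 767 had Calb2 and no Tac2. Cells with both had a median of 5875 UMIs against 3938 in cells with Calb2 alone, but these medians pool experiments of different depth. Within experiments the gap was smaller in each of the 7, for example 7386 against 6935 at 1 month and 2209 against 2138 in the second experiment at 2 months, and cells with both had the higher median in all of them. The rule also used Tac2: a cell with Tac2 needed only 1 further late marker, a cell without it needed 2 of the other 3, and 32 cells were members only through Tac2. Cells with and without Tac2 are therefore compared for all members as a description. Of 3371 genes, 10 lay under an edgeR adjusted p of 0.05 (0.297%): Hmgn2 (0.56), Mfap4 (0.66), the growth factor gene Mdk (0.45), the nuclear receptor gene Nr2f2 (0.73), Bckdha (0.84), Pcp4 (0.47), Nnat (0.30) and mt-Co1 (0.24) were at higher levels in cells with Tac2, and the immediate early gene Egr1 (-0.55) and Islr2 (-0.48) at lower ones. Without the second experiment at 2 months these were 4, Nnat (0.33), Mdk (0.45), Egr1 (-0.53) and Hmgn2 (0.59).

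The part that the rule plays was removed in the 1062 late neuroblasts with at least 2 of Calb2, Stmn2 and Bhlhe22, of which 201 had Tac2. This comparison and the next were chosen after the data had been seen. In these cells 8 genes passed in edgeR, 4 higher with Tac2, Nnat (0.31), Mdk (0.37), Pcp4 (0.43) and Bckdha (0.87), and 4 lower, the immediate early genes Egr1 (-0.54), Junb (-0.52) and Ier2 (-0.42) and the protease inhibitor gene Cst3 (-0.43). Of the 10 genes above, 5 were among these 8, and Hmgn2 was not (0.14, adjusted p = 0.79). With counts thinned to 1500 UMIs, which left 102 cells with Tac2 and 916 without, with as few as 4 of the former in an experiment, 0 genes passed in edgeR and 230 had an unadjusted p under 0.05. There Nnat gave 0.25, Egr1 -0.63 and Hmgn2 -0.013. Fewer cells with Tac2 and fewer UMIs per sum also weaken that fit. Cells with Tac2 and no Calb2 reached 10 only in the second experiment at 2 months, where 17 of them held 8 UMIs of the mitotic gene Cdc20 and 189 cells with Calb2 and no Tac2 held 4. With so few UMIs this is a description of that library.

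The reporter bears on the cells' division history only as far as its UMIs were detected. A cell was called recombined if it had few UMIs of the intact reporter locus and several of the elements behind it, with the study's limits, which were doubled for Version 3. A cell not called may still be recombined. Outside the first experiment at 2 months each library pooled tdTomato-positive and tdTomato-negative cells. Its share therefore also depends on how many of each were loaded. Of late neuroblasts 38.3% were recombined at 1 month, 24.3%, 25.1% and 42.3% at 2 months and 39.3%, 30.9% and 49.0% at 6–8 months. In intermediate progenitors the shares were 42.0%, then 17.4%, 29.8% and 47.4%, then 47.4%, 46.0% and 51.6%, and among oligodendrocytes of the 7 experiments they ran from 0.152% to 10.5%. The late share was below that of progenitors in 6 of 7 experiments, with a mean difference of -4.62 percentage points (SD 6.58), and an exact two-sided sign-flip test gave p = 0.11, where the smallest possible p is 0.016. Against early neuroblasts the late share was on average 6.80 points higher (SD 13.0), higher in 3 of 5 experiments, with an exact p of 0.31 where 0.063 is the smallest possible. Neither difference passed with these limits, but the result depended on the limits and the cells. Thinned to 1500 UMIs, late neuroblasts gave shares of 15.7% at 1 month, then 8.38%, 15.7% and 25.2%, then 15.9%, 5.45% and 18.6%. The shares themselves therefore depend on depth. Late minus progenitors was -6.48 points without a limit on the intact locus and -6.29 points in thinned cells (exact sign-flip p = 0.047 each), and it turned to 0.45 with the same limits in both chemistries. Late minus early neuroblasts was 1.52 points in thinned cells, over the 4 experiments with enough of them, and turned to -1.00 points for cells with at least 3 late markers against cells with none. In the first experiment at 2 months the libraries were sorted apart, and 1 of them is labelled as GFP+tdT+ together with GFP-tdT- cells. There 40 of 60 late neuroblasts were called recombined (66.7%, exact binomial interval at 95% of 53.3% to 78.3%). In the GFP-positive, tdTomato-negative library 1 of 109 was (0.917%, 0.0232% to 5.01%). The intervals cover counting error only. Of intermediate progenitors in the same 2 libraries, 33 of 47 (70.2%) and 0 of 143 were called recombined. The summed shares of that experiment, 24.3% and 17.4%, therefore also depend on how many cells of each group each library gave. Without that experiment the mean difference from progenitors was -6.54 points (exact sign-flip p = 0.031, the smallest that 6 experiments can give).

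The Nestin-GFP transgene is transcribed as eGFP. Its level was 130 CPM at 1 month, 69.8, 164 and 136 at 2 months and 35.9, 119 and 65.3 at 6–8 months in late neuroblasts. In progenitors it was 274, then 156, 317 and 294, then 125, 133 and 92.6. It was lower in late neuroblasts of all 7 experiments (-0.95 ± 0.09, edgeR adjusted p = 5.7e-15), and the groups overlapped. Oligodendrocytes had a UMI of eGFP in 44.6% of cells and late neuroblasts in 28.6% (20.5% and 12.4% in cells thinned to 1500 UMIs), so a UMI of eGFP does not mark neuroblasts, and free eGFP RNA and transcripts of the cells cannot be told apart here.

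**Figure D4:**
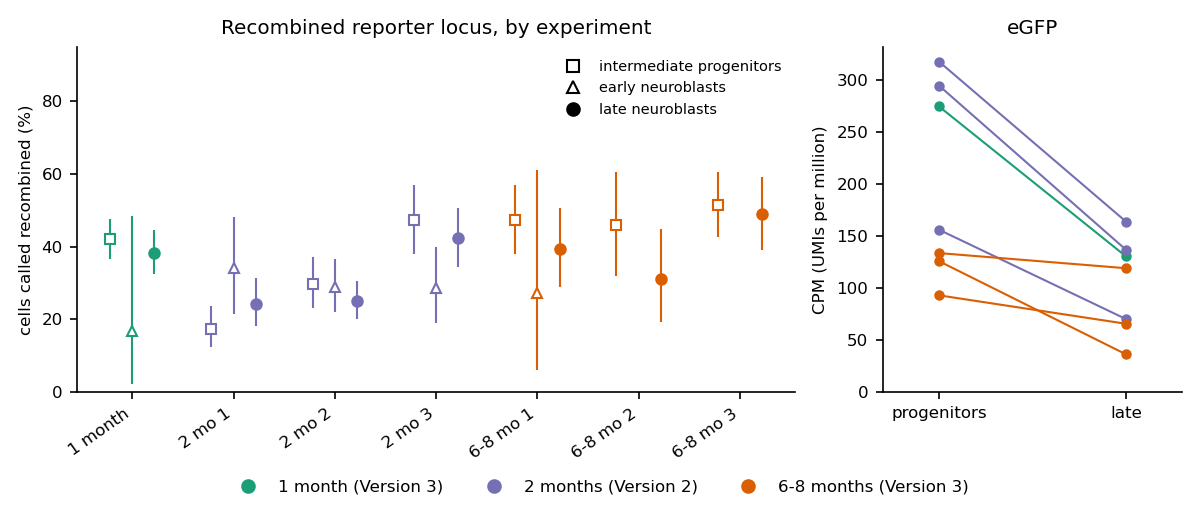
Left, percent of cells called recombined in each experiment for intermediate progenitors (squares), early neuroblasts (triangles, drawn for the 5 experiments with at least 10 such cells) and late neuroblasts (circles), with exact 95% binomial intervals as bars; right, eGFP in CPM in progenitors and late neuroblasts, 1 line per experiment. The late share lies below the progenitor share in 6 of 7 experiments, and eGFP falls in all 7.

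Age was compared within late neuroblasts to ask whether the same stage differs between young and older mice. Late neuroblasts made up 7.79% of the cells past the filters at 1 month, 4.03%, 6.87% and 8.35% at 2 months and 3.33%, 1.63% and 1.98% at 6–8 months, shares that the sorts also set. As a share of all neuroblasts, late plus early, they made up 95.5% at 1 month, 76.1%, 63.6% and 65.9% at 2 months and 88.4%, 87.3% and 94.4% at 6–8 months. The values at 2 months and 6–8 months did not overlap (68.5% ± 6.68 against 90.1% ± 3.84, SD, n = 3 each). The late markers of the rule alone set this share, so it is a description and has no test. With cells thinned to 1500 UMIs and chosen again from the thinned counts, the means were 48.6% and 62.8%. Chemistry changes with these ages, so the 2 cannot be told apart.

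Gene expression in late neuroblasts at 6–8 months was then compared with that at 1 month, which had a single experiment whose spread was assumed to be that of the others. Of 5077 genes tested, 6 passed an edgeR adjusted p of 0.05 (0.118%), all 6 higher at 6–8 months, and 233 had an unadjusted p under 0.05. Genes were called lower under other settings: the 4 Version 3 experiments alone gave 11 higher and 5 lower, no filter on low genes 16 higher and 5 lower, and late neuroblasts with at least 3 late markers 8 higher and 3 lower. No tested gene of the neuronal lists passed: 0 of 17 transcription factors (list median 0.21), 0 of 23 microtubule and growth cone genes (-0.07), 0 of 12 adhesion genes (-0.01), 0 of 13 synaptic vesicle genes (0.02) and 0 of 7 high mobility group genes (-0.14), beside a median over all tested genes of 0.01. Larger medians came from lists with few tested genes. They were 0.43 for steroid and neurotrophin signalling (4 tested), 0.40 for glutamate receptors (4), 0.37 for voltage-gated channels (3), 0.34 for guidance (7) and 0.29 for mature neurons (4). Simulated log2 changes of 2 were recovered in 54.7% of genes at this design, so that many changes could be missed.

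Gm8797 stood at 18.9 CPM at 1 month, 88.4, 134 and 76.6 at 2 months and 85.7, 94.4 and 119 at 6–8 months (2.39 ± 0.34, adjusted p = 1.4e-04). The single value at 1 month lay below all others. Sez6, which shapes dendrites and synapses of young neurons, stood at 22.7, then 24.8, 44.3 and 38.3, then 57.8, 55.7 and 105 (1.71 ± 0.36, adjusted p = 0.036). Its values at 6–8 months lay above all of the younger ones, as did those of AC149090.1 (65.3, then 140, 90.2 and 69.4, then 225, 191 and 198, log2 fold change 1.63). The transcriptional regulator gene Mn1 was lowest at 1 month (11.9) and highest at 2 months (57.4 to 91.7), with a log2 fold change of 1.92. Gm47283, named although the rule for named genes stopped before it, stood at 251, then 135, 310 and 273, then 604, 661 and 676 (1.35). Its gene lies on chromosome Y (90784738 to 90816464, plus strand), and the pools held both sexes: Xist stood at 553, then 2151, 1496 and 1865, then 1432, 647 and 930, and the Y-linked gene Eif2s3y at 57.2, then 45.0, 33.6 and 33.5, then 41.9, 75.1 and 67.7. Whether the sex ratio has a part in the result was not tested. Gm8797 and AC149090.1 are gene models that may share reads with near-identical copies and are uncertain for that reason.

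Ptgds, which encodes a prostaglandin synthase that oligodendrocytes and meningeal cells make in quantity, had the largest fold (3.95 ± 0.85), from 2.16 CPM at 1 month to 49.8, 29.1 and 30.8 at 6–8 months, and was highest at 2 months (118, 495 and 132). Mbp, which encodes a protein of the myelin sheath, stood at 15.7, then 38.8, 342 and 132, then 17.9, 31.5 and 28.3, and was highest in the same experiment at 2 months. The part of free oligodendrocyte RNA in the Ptgds result was not tested. The 6 genes kept their sign with any 1 experiment at 6–8 months left out, but their calls were not stable. Leaving out the first or the third took most of the 6 out of those called, and leaving out the second took some. Without the first or the second, genes were also called lower. Without the third experiment at 6–8 months 3 genes passed, and with thinned cells 0 of 1184 genes tested passed in edgeR (35 at an unadjusted p under 0.05), where only 2 of the 6 could be tested.

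**Figure D5:**
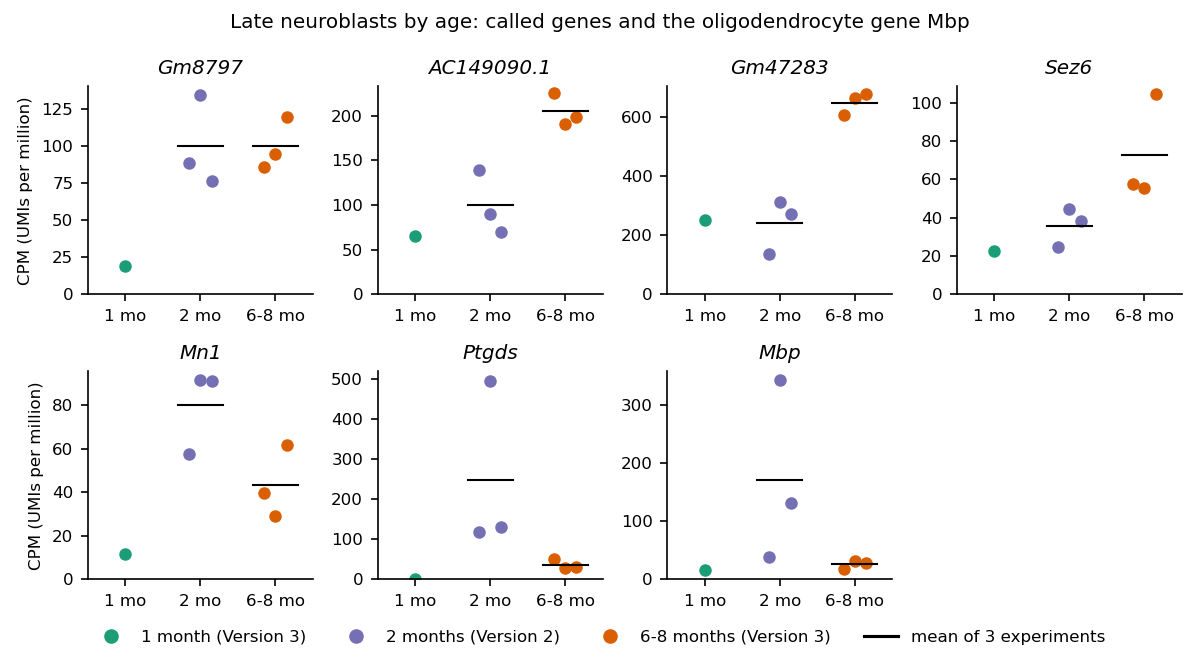
Levels in late neuroblasts (CPM, vertical axes from 0) by age for the 6 genes called between 6–8 months and 1 month and for the oligodendrocyte gene Mbp, 1 point per experiment and a bar for the mean of 3 experiments. Ptgds and Mbp peak in the same experiment at 2 months, and AC149090.1, Gm47283 and Sez6 are highest at 6–8 months.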

How the data were processed

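Droplet libraries (10x 3′, polyadenylated RNA) were sequenced from sorted dentate gyrus cells. Per the labels and the submitters' processing notes the authors used cutadapt 1.18, Cell Ranger 3.0.2 with mm10 and Seurat, and the deposited matrix holds raw UMI counts of 31058 genes and reporter elements for 8 libraries, with 4861883 to 43826338 UMIs per library. No column of values was left unmapped (0). Barcodes were tied to libraries by the suffix that the labels give, and the 2 libraries of the 2-month experiment whose cells were sorted apart were summed. The members, gene lists and tests were chosen with earlier results of these data known.

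UMI counts were summed per experiment and cell group and tested with edgeR 4.0.16 (glmQLFit, TMM, R 4.3.3), with Benjamini-Hochberg adjustment, for genes seen in 20% or more of either group's cells. The study's tests took cells as replicates, and sums per experiment were used here, since the replicate is the experiment. Experiment was a block in comparisons between cell groups, because both groups come from the same mice and day. Levels are in CPM, a gene's UMIs among 1000000 UMIs of the sum, and log2 fold changes are ± SE. This SE was derived from the test, as the size of the log2 fold change over the square root of edgeR's F statistic, and is approximate. The comparisons with intermediate progenitors and of cells with and without Tac2 were added after seeing the data. The text names the 10 genes with the largest changes each way that kept 1 sign in every experiment, the 4 most abundant tested members of each list, the 5 for age, and list members called. Other listed members that are named were chosen after their values were seen.

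Counts were simulated from the mean levels and library sizes of these samples, with a dispersion of 0.1 for every gene and no differences between experiments. With 200 genes changed by 2 log2 units, 99.2% (late against early, 3037 genes), 100.0% (late against progenitors, 4498 genes) and 54.7% (age, 5077 genes) were recovered, with 3.13%, 2.91% and 2.67% false calls. Smaller changes, such as most of those named here, were not simulated. DESeq2 1.42.0, other scalings, filters, thinning and left-out experiments were the alternatives. For thinned gene tests between cell groups and ages, and for the thinned late share, the rule was applied again to the thinned counts. These alternatives therefore change the cells as well as the depth. Thinned shares of cells with a UMI, thinned recombined shares and the thinned Tac2 split kept the cells chosen at full depth. Coordinates are those of GENCODE M21 (GRCm38), which may differ from the annotation of the custom reference. Some genes that passed a test are not reported here. Python 3.11.15 with numpy 2.4.6, scipy 1.17.1 and pandas 2.3.3 was used.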

Additional observations from a re-analysis of the deposited data

Results flagged for a closer look

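The difference between late neuroblasts and intermediate progenitors was itself compared between ages in edgeR, with the interaction tested over 4498 genes. Between 2 months and the other ages 18 genes passed an adjusted p of 0.05, and 10 of them are named above: the difference was higher at 2 months for Plxna4 (by 1.20 log2 units), Neurod2 (0.86), Prox1 (0.57), Gria2 (0.39), Ier2 (0.45), Xist (0.37), Zbtb20 (0.27) and Nfib (0.24), and lower at 2 months for Apoe (-0.73) and H2afz (-0.53). Neurod2, Prox1 and Gria2 were higher in late neuroblasts at all 3 ages. Without the second experiment at 2 months, an alternative chosen after seeing the data, 22 genes passed, and 10 of the 18 were among them. Neurod2 (0.87), Prox1 (0.61), Ier2 (0.49), Xist (0.38), Zbtb20 (0.26), Apoe (-0.84) and H2afz (-0.54) still passed, and Plxna4 (1.103), Gria2 (0.35) and Nfib (0.25) did not. Age and chemistry cannot be told apart in this contrast.

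Between 6–8 months and 1 month, both in Version 3, 4 genes passed, of which Vim, Apoe and Cst3 are named above. The difference was higher at 6–8 months for Vim (1.26) and lower for Apoe (-0.82) and Cst3 (-0.89). Vim was lower in late neuroblasts in each of the 4 experiments involved, by less at 6–8 months. With a single experiment at 1 month these differences rest on that library.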

How the results depend on the processing

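Late against early neuroblasts went from 62 genes to 4 without the replicate block, 17 in Version 3 alone, 41 without any UMI of other-lineage genes, 36 without cells with interneuron or Cajal-Retzius markers, 213 with no filter on low genes, 149 with at least 3 late markers against none, 132 thinned to 1500 UMIs, 104 at 5 or more cells per sum and, added after seeing the data, 9 without cells with an oligodendrocyte UMI, and leaving out 1 experiment each gave 22 to 92. The 33 genes called there that belong to a list or to the largest changes kept their sign under every alternative run that tested them, but 168 of 582 of their values no longer passed. Only 1 of the 33 passed under every alternative that tested it, and in the comparison with progenitors, given next, 44 of 86 did. Late against progenitors (1275 genes) gave 652 with DESeq2, 197 without the replicate block, 594 in Version 2 alone and 296 thinned, and 920 to 1287 with 1 experiment left out; of 1570 values of its 86 called genes of the same kind, 135 no longer passed and 4 turned, Tuba1a (0.033 thinned, 0.12 against progenitors with under 2 late markers), Nfix (0.0092 thinned) and Tenm4 (0.19 against those progenitors). Age (6 genes) gave 3 with DESeq2, 3 by total UMIs, 21 with no filter, 16 from the 4 Version 3 experiments, 0 thinned, 11 with at least 3 late markers and 3 to 6 with 1 experiment left out. The split by Tac2 (10 genes) gave 4 without the second experiment at 2 months and 0 among cells with at least 2 of the other 3 late markers at equal depth, where Hmgn2 (-0.013) and mt-Co1 (-0.092) turned. The recombined share of late minus early neuroblasts turned to -1.00 points with at least 3 late markers against none (3.09 to 10.9 with 1 experiment left out). Late minus progenitors turned to 0.45 with the same limits in both chemistries, passed an exact test at -6.48 without a limit on the intact locus and at -6.29 thinned, and gave -6.54 to -2.88 with 1 experiment left out, passing without the first at 2 months. The late share of neuroblasts differed by 19.0 to 25.3 points with 1 experiment left out. With 1 experiment at 6–8 months left out, not all of the 6 genes called for age were called again. The causes were not tested. Depth limits detection of low genes, above all in Version 2.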
